A study of Mus musculus with 6 samples.

Results

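The Dlk1-Dio3 locus was examined in small RNA libraries of whole hearts from 3 ADAR2-/- (Adarb1-/-, Gria2R/R) and 3 wild-type female mice on an SV129 background at postnatal day 6. ADAR2, encoded by Adarb1, converts adenosine to inosine in double-stranded RNA, and the knockout affects every cell of the animal. By the study's methods the animals were siblings and both genotypes carried Gria2R/R, a glutamate receptor gene with the edited codon built in that rescues ADAR2-/- mice from early death, while the genotype label of the wild-type samples names no Gria2 allele. The members were chosen by gene identity and position: Meg3, Rian, Mirg and Mir382, plus every other row of the class miRNA on chromosome 12 from 109450000 to 109760000 (GRCm38). This gave 14 of the 10065 genes in the deposited table, namely Rian, Mirg and 12 miRNA genes out of 134 miRNA genes in all. Of the 4 genes named in the rule 3 had a row, and no row carried the identifier of Meg3.

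The table gives 1 mean normalized count per gene, which the authors took over samples, and no value per animal. The levels below are therefore the authors' means without regard to genotype, and which libraries were averaged is not listed. They have no error and no test. The methods give only a minimum number of reads per sample, so the depth of each library is unknown, and no comparison of ADAR2-/- with wild-type hearts was made from them. For the same reason the knockout itself could not be checked in each library. The row of Adarb1 had a mean of 16.6 and that of Adar, the gene of ADAR1, a mean of 1.87. Of 8 cardiomyocyte genes 7 had a row, with means from 4.82 (Tnnt2) to 943 (Myh7), and of 3 liver genes 0 did. Myh7 and Myh6 hold the hairpins of Mir208b and Mir208a, whose means were 99.4% and 97.3% of theirs, and how much of the myosin rows came from the hairpins was not tested. Of 4 skeletal muscle genes 1 had a row (Acta1, 5.79) and of 3 blood genes 2 did (3.21 and 4.71). Of 4 brain genes 3 had a row, with Syt1 at 114 and Snap25 at 6.03. Syt1 thus lay between Ttn (82.9) and Myh6 (425). Because the libraries are of small RNA, the means of these long genes are not shown to be transcript levels. The cell types in the hearts were not tested by these lists.

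The Dlk1-Dio3 locus is an imprinted domain, in which a gene is read from only the maternal or only the paternal chromosome. Protein-coding genes (Dlk1, Rtl1 and Dio3) are expressed from the paternal copy, and a series of noncoding RNAs is expressed from the maternal copy. These are Meg3, an antisense transcript of Rtl1, the snoRNA host Rian and the miRNA host Mirg. The miRNAs are cut from hairpins in these long transcripts by Drosha and then Dicer, and the seed of the mature miRNA, bases 2 to 8, pairs with its targets. Several hairpins of the locus, among them those of miR-376, miR-379 and miR-411, are known substrates of ADAR enzymes, which prefer an adenosine that follows U and precedes G.

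The mature sequences shown first are those of the members with the highest means, of Mir382 and Mir127, and of 1 overlapping pair, because the seed, the UAG triplet and the antisense overlap in them recur in the results. They were taken from RefSeq (GRCm38.p6), in which 11 of the 12 miRNA genes had an entry, with 22 mature sequences. Gm25252 was not matched. Capitals mark the seed, and each line reads from 5′ to 3′.
miR-379-5p (chr12:109709065-109709085, plus strand): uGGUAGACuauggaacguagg
miR-411-5p (chr12:109710190-109710210, plus strand): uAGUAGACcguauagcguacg
miR-376a-5p (chr12:109723786-109723807, plus strand): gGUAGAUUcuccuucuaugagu
miR-376a-3p (chr12:109723824-109723844, plus strand): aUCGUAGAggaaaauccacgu
miR-379-3p (chr12:109709102-109709123, plus strand): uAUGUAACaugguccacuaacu
miR-411-3p (chr12:109710225-109710246, plus strand): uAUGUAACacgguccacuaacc
miR-382-5p (chr12:109733781-109733802, plus strand): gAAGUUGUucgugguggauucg
miR-382-3p (chr12:109733819-109733840, plus strand): uCAUUCACggacaacacuuuuu
miR-127-3p (chr12:109592888-109592909, plus strand): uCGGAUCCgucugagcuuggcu
miR-136-5p (chr12:109595331-109595352, plus strand): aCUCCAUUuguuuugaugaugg
miR-3071-3p (chr12:109595329-109595350, minus strand): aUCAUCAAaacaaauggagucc

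Mir379, the first hairpin of the miR-379/miR-410 cluster, had the highest level of the locus. Its mean normalized count was 33.7 (ENSMUSG00000065498, chromosome 12, 109709060 to 109709125, plus strand), which placed it 25th of the 134 miRNA genes. Mir411, which starts 1115 bases further on, had a mean of 10.4 and ranked 56th (ENSMUSG00000065477, 109710175 to 109710256). GENCODE M21 has no other gene over either hairpin. Per kilobase of hairpin the level of Mir379 was 511 and that of Mir411 127, a ratio of 4.03, beside 3.24 for the means. A mature miRNA is shorter than its hairpin, so a count need not grow with hairpin length. Levels per kilobase of hairpin therefore depend on the annotated length. Mir376a, which belongs to the miR-376 family, had a mean of 5.22 and ranked 80th (ENSMUSG00000105178, 109723781 to 109723848). Its level per kilobase was 76.8, so that Mir379 was 6.65 times higher on that scale. Mir379 and Mir411 together held 63.8% of the summed mean of the locus' miRNA genes, with rows of identical value counted once, and Mir379 alone held 48.7%.

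Mir382, whose mature miRNA is among those the study lists, had a mean of 4.47 and ranked 89th of the 134 miRNA genes (ENSMUSG00000065428, 109733771 to 109733846, plus strand). Its hairpin lies across the edge of an exon of Mirg on the same strand. The miRNA genes next above it in mean were Mir127 at 4.48 and Mir30b at 4.54, and those next below were Mir24-2 and Mir3074-2, both at 4.35. Without a spread between animals, none of these neighbours can be said to differ from Mir382. Mir154 and Mir541, further along in introns of Mirg, had means of 2.97 (109738433 to 109738498) and 2.41 (109742409 to 109742498). Per kilobase of hairpin Mir382 stood at 58.8, Mir154 at 45.0 and Mir541 at 26.8. Mir379 was thus 8.70 times as high as Mir382 and 19.1 times as high as Mir541 per kilobase, although these hairpins lie within 33.4 kb of each other.

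The miRNA genes before the miR-379/miR-410 cluster had low levels. Mir127 lies opposite an exon of Rtl1, and its miRNA matches the Rtl1 transcript fully because it is read from the other strand. It had a mean of 4.48 (ENSMUSG00000070076, 109592846 to 109592915, plus strand) and 64.0 per kilobase, which is 1.09 times the level of Mir382 on that scale. Mir136, also opposite the Rtl1 exon, had a mean of 2.96 (109595327 to 109595388, plus strand). Mir337, which lies closer to Meg3, had a mean of 2.56 (109585789 to 109585885, plus strand). The lowest mean of any miRNA gene in the table was 1.63.

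**Figure D1:**
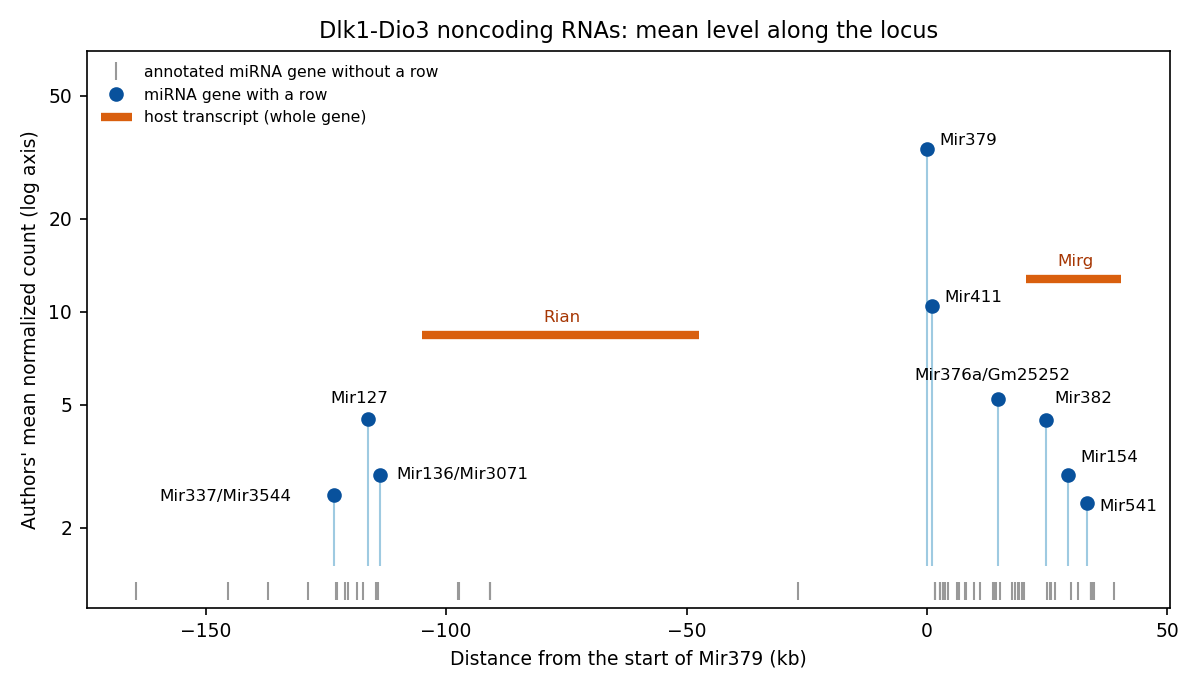
The authors' mean normalized count (log axis) of each Dlk1-Dio3 member is plotted against its distance from the start of Mir379 in kb, with grey ticks for annotated miRNA genes that have no row and bars spanning the whole genes Rian and Mirg. Mir379 at 33.7 stands above Mirg at 12.8 and Mir411 at 10.4, and the miRNA genes near Rtl1 lie between 2.56 and 4.48.

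Some members cannot be told apart from a gene on the opposite strand. Mir376a and Gm25252 (both 5.22), Mir136 and Mir3071 (both 2.96), and Mir337 and Mir3544 (both 2.56) overlap each other and have identical values. Over the whole series 14 pairs of miRNA genes overlap, all on opposite strands, and 14 of the 14 have identical means. The 12 miRNA genes of the locus therefore hold 9 distinct values. The mature sequences are antisense to each other as well, since miR-136-5p and miR-3071-3p are complementary over 20 bases of the lines above and miR-337-3p and miR-3544-5p over 21. Which strand the reads came from is not shown by the means.

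Compared with the rest of the miRNA genes, those of the locus lay in the lower part of the table. Their median mean was 3.72, beside 7.96 for the other 122 miRNA genes. Per kilobase of hairpin the medians were 46.4 and 89.9. A mean of at least 10 was found for 2 of the 12 (16.7%) and for 54 of the other 122 (44.3%), and a mean under 5 for 8 of the 12 (66.7%) and 43 of the 122 (35.2%). Of the summed mean of all miRNA genes the locus held 1.46%. At the other end stood Mir208b at 938, Mir126a and Mir126b at 675, Mir208a at 413 and Mir143 at 289, which are miRNAs of heart muscle, endothelium and smooth muscle. Per kilobase Mir208b was 23.8 times as high as Mir379, and by the mean 27.8 times. No test was made of these differences, because genes are not replicates and several share reads.

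**Figure D2:**
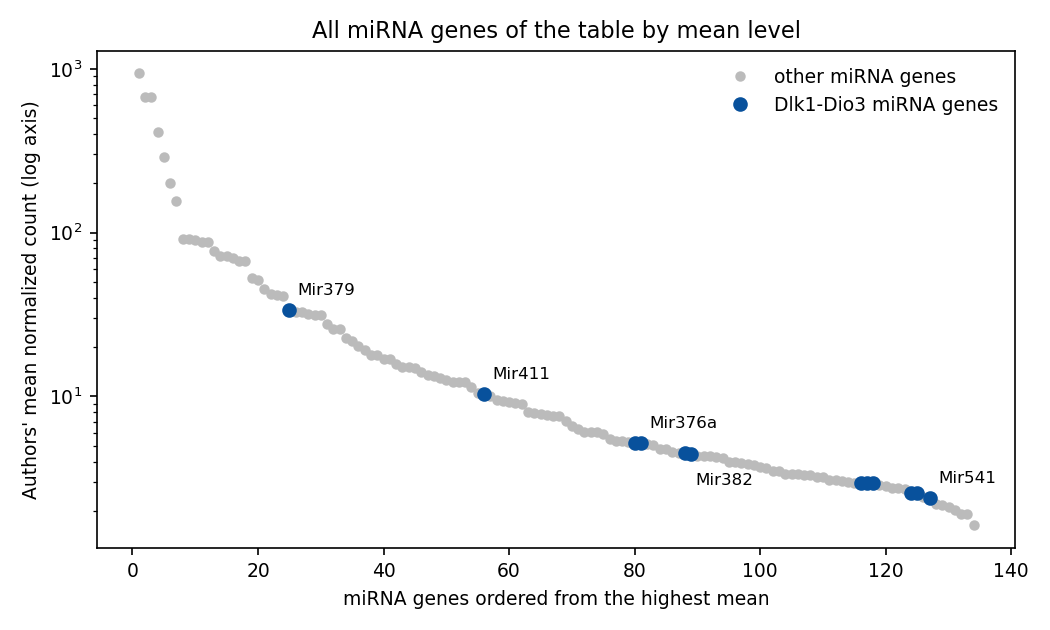
All 134 miRNA genes of the table are ordered from the highest authors' mean normalized count, which is on the log axis, with the 12 Dlk1-Dio3 miRNA genes as dark points. Of the 12, 10 lie below the median of all miRNA genes, 7.64, and only Mir379 (33.7) and Mir411 (10.4) lie above it.

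Most annotated miRNA genes of the locus had no row. GENCODE M21 places 66 miRNA genes in the interval, of which 12 (18.2%, Wilson 95% interval from 10.7 to 29.1, with genes that are not independent as the units) had one. From Mir379 to Mir410 this was 7 of 43 genes (16.3%), and before Mir379 it was 5 of 22 (22.7%). Of the genes from Mir379 up to the start of Mirg 4 of 29 had a row, and of those inside Mirg 3 of 15. For all other annotated miRNA genes of the mouse the share was 5.71% (122 of 2136). This gap depends on the annotation. In RefSeq, which has 1005 mouse hairpins, 178 of all 1738 mature sequences belong to a gene with a row, beside 22 of 112 in the locus. In another imprinted cluster, inside Sfmbt2 on chromosome 2, 0 of 119 had a row, and in the early embryonic cluster Mir290 to Mir295 0 of 9 had one. Of the miR-17/92 cluster 1 of 6 had a row, Mir19b-1 with a mean of 5.30, and of the miR-106b/25 cluster 2 of 3 had one (66.7%), Mir25 at 3.11 and Mir106b at 1.90. Why a gene has no row is not stated, and the lowest mean in the table was 1.09, so a gene without a row is not shown to be silent. The 23 annotated snoRNA genes of the interval had 0 rows. The share of all annotated mouse snoRNA genes with a row is not given here, so this count is not shown to be particular to the locus.

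The long noncoding RNAs had means of 12.8 for Mirg and 8.42 for Rian. Mirg (ENSMUSG00000097391, 109729764 to 109749460, plus strand) is the host transcript of the downstream miRNAs, and Rian (ENSMUSG00000097451, 109603940 to 109661716, plus strand) carries C/D box snoRNAs, which guide methylation of other RNAs. Per kilobase of exon the level was 1.75 for Mirg and 0.46 for Rian, a ratio of 3.79. The hairpin rows inside Mirg summed to 77.1% of its mean, leaving 2.93, and Mir154 and Mir541 lie in its introns. How much of the Mirg level came from hairpins was not tested, so the ratio is not shown to be that of the long transcripts. Both levels per kilobase were below the 26.3 of the lowest miRNA hairpin of the locus, that of Mir337. This order comes with the lengths, which are 7292 and 18234 exon bases against 97 for that hairpin. By the mean itself Mirg and Rian stood above Mir337, at 2.56.

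The means of the hairpins inside Mirg and Rtl1 were set beside those of the genes that hold them. Mir382, Mir154 and Mir541 summed to 9.85, which is 77.1% of the mean of Mirg. Mir382 by itself was 34.9% of it. Rtl1, the retrotransposon-derived gene with the antisense miRNAs, had a mean of 12.0, and the distinct values of Mir127 and Mir136 with Mir3071 summed to 7.44, or 62.0% of that. Rian contains 4 annotated miRNA genes and 13 annotated snoRNA genes, and 0 of these had a row, with the limit on snoRNA genes given above. In the whole table, genes of other classes that contain a miRNA gene were taken on either strand, short noncoding genes included. Their mean was at least that of the miRNA gene in 106 of 107 pairs, and in 71 of 71 where it lies in an intron. The table does not say how reads on overlapping genes were counted, so how much of the Mirg and Rtl1 means came from the hairpins was not tested.

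**Figure D3:**
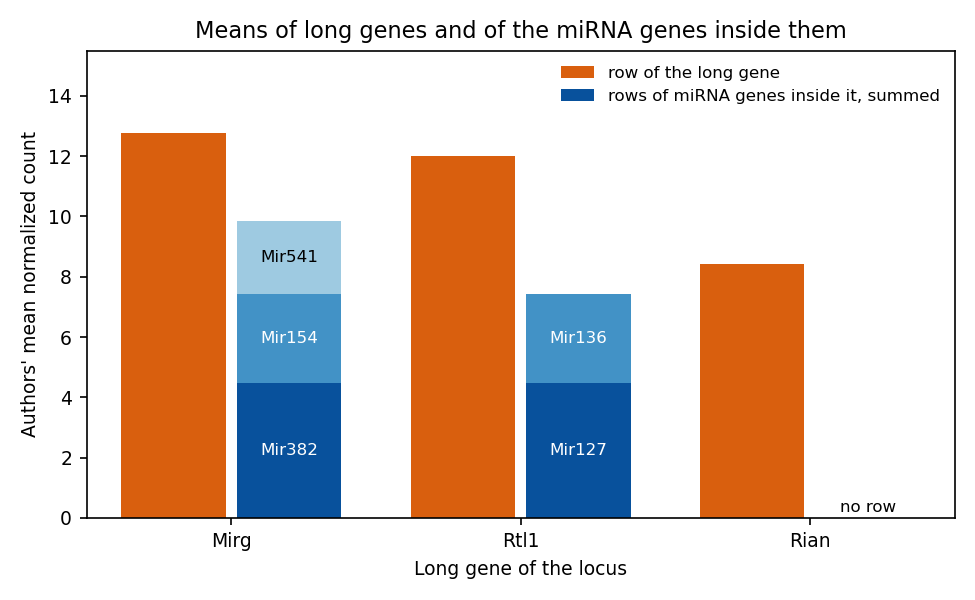
Orange bars give the authors' mean normalized count of Mirg, Rtl1 and Rian, and the blue bars beside them stack the means of the miRNA genes inside each. The stack reaches 9.85 beside 12.8 for Mirg and 7.44 beside 12.0 for Rtl1, and Rian, at 8.42, has no miRNA row inside it.

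Of the protein-coding genes of the domain, Rtl1 (109589193 to 109600330, minus strand) had a mean of 12.0. The hairpin rows within Rtl1 summed to 62.0% of that, and how much came from the Rtl1 transcript was not tested. Dio3 (110279068 to 110281097), which encodes a deiodinase that inactivates thyroid hormone, had a mean of 4.62. Since the libraries are of small RNA, the levels of Dio3 and of the long noncoding genes below are not shown to be transcript levels. No row carried the identifier of Dlk1. Of 7 imprinted noncoding RNA genes of other loci 4 had a row. Per kilobase of exon, H19 stood at 2.50, Airn at 1.49, Snhg14, the snoRNA host of the Prader-Willi locus, at 1.19 and Kcnq1ot1 at 0.0766. Mirg at 1.75 and Rian at 0.46 lay within this range, with the limit on the Mirg level given above. The order depends on the length used. Per kilobase from gene start to gene end, Rian at 0.146 stood above Kcnq1ot1 (0.0766), Snhg14 (0.0464) and Airn (0.0450). H19 (2.35) and Mirg (0.649) stood above Rian on that scale too. No row was found for Mir675, Peg13 or Nespas.

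Among the miRNA genes of the locus that had a row, the seeds were largely unlike each other. The 22 mature sequences held 21 different seeds, and the shared one was that of miR-379-3p and miR-411-3p (AUGUAAC). These miRNAs agree at 20 of 22 bases, while their 5p arms agree at 14 of 21. The seed of miR-379-5p also occurs in miR-1193-5p of the same locus, whose gene had no row. No seed of a member was shared with a miRNA gene outside the locus that had a row. Only the hairpin of Mir411 shared a run of at least 16 bases with another mouse hairpin, 21 bases with Mir758, which had no row. For the other hairpins the longest shared run was between 10 and 12 bases.

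The triplet UAG, which holds the context ADAR enzymes prefer, was searched on the strand of the miRNA. It lay in the seed of 4 of the 22 mature sequences (18.2%), beside 98 of all 1738 mouse mature sequences (5.64%) and 18 of the 178 whose gene had a row (10.1%). Over all annotated miRNA genes of the locus, with or without a row, it lay in 7 of 112 seeds (6.25%), a share close to that of the mouse as a whole. Anywhere in the mature sequence it was found in 6 of the 22 (27.3%) and in 420 of the 1738 (24.2%). The 4 are miR-379-5p and miR-411-5p, where it starts at base 4, miR-376a-3p, where it starts at base 5, and miR-376a-5p, where it starts at base 3. They come from Mir379, Mir411 and Mir376a, the miRNA genes with the highest means of the locus. Over the whole hairpin UAG was found in 6 of 11 members (54.5%) and in 598 of 1005 mouse hairpins (59.5%). Mir382, Mir127, Mir136, Mir3071 and Mir541 had none in their hairpin. The search was chosen after the levels were known, and a match is a description of the letters only. Editing itself was not measured in the table.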

How the data were processed

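Short RNA was sequenced from postnatal day 6 hearts of 3 mice per genotype, ADAR2-/- and wild type. The authors removed adaptors with Cutadapt, mapped reads to the genome (mm9 in the submitters' processing notes) with Bowtie and used DESeq to compare the genotypes. The methods also describe mapping to mature miRNA sequences with NextGenMap at a minimum identity, and do not say which mapping made the table. The annotation, the mismatches allowed to Bowtie and the counting of overlapping genes or multiply mapped reads are not given in the sources used here. The signal analysed is a mean normalized count that the authors deposited, in which counts scaled by library size factors were averaged over samples. Which samples were averaged, and which terms the authors' model held, is not listed. The other 6 columns, by their headers, hold the authors' own comparison of the genotypes (fold changes before and after shrinkage, a standard error, a test statistic and p-values) and were not used, and no value per sample was analysed, so no test was made. Limits are thus set by the number of animals and by a depth per library that is not given beyond a minimum.

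Ensembl identifiers were looked up in GENCODE M21 (GRCm38), where 10005 of 10065 were found, and all coordinates are from that annotation. Levels per kilobase were divided by the joined exon length. For hairpins this depends on the annotation, since Mir337 and Mir3544 share a mean of 2.56 but stood at 26.3 and 41.9 per kilobase. Wilson intervals cover counting over genes only. Mature sequences and hairpins came from RefSeq (GRCm38.p6). Named genes were the members, Rtl1, Dlk1, Dio3 and the snoRNA genes of the interval, the miRNA genes next to Mir382 in mean, the 5 miRNA genes of highest mean, 7 other imprinted noncoding RNAs, Adarb1 and Adar, beside lists of marker genes (cardiomyocyte, skeletal muscle, liver, brain and blood) and 4 comparison clusters. Mir758, miR-1193-5p, Mir19b-1, Mir25 and Mir106b were named after their values were seen. Members and lists were chosen with earlier results of these data known. The rank, share and sequence functions were tested on simulated data. Python 3.11.15, pandas 2.3.3, numpy 2.4.6, scipy 1.17.1 and matplotlib 3.10.9 were used.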

Additional observations from a re-analysis of the deposited data

How the results depend on the processing

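The number of members with a mean of at least 10 was 3 (Mir379, Mirg and Mir411). A minimum of 5 gave 6 members and a minimum of 20 gave 1. The share of the miRNA mean on the locus was 1.46%. It was 1.54% with rows of identical value counted once, 0.863% over rows with a mean of at least 10, 3.22% without the 5 highest miRNA rows and, chosen after seeing the data, 1.94% without Mir208a and Mir208b. The median mean of the miRNA genes of the locus was 3.72. It was 4.47 with rows of identical value counted once and 7.81 over those with a mean of at least 5. Divided by the length from gene start to gene end in place of the exon length, the level per kilobase was 0.65 for Mirg (from 1.75) and 0.15 for Rian (from 0.46). These shifts follow from the rows or lengths that each alternative keeps. The share of annotated miRNA genes with a row was 18.2%. It was 19.3% in the RefSeq list, 16.3% from Mir379 to Mir410 and, added after seeing the data, 15.3% with overlapping genes counted once. These alternatives use largely the same genes, so their closeness is not independent support. UAG in the seed was found in 18.2% of both arms and, chosen after seeing the data, in 3 of 11 5p arms (27.3%). Over all mouse 5p arms it was found in 48 of 727 (6.60%).

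No paired analysis was possible because the deposited mean has no values per sample. The edgeR test of the genotypes and leaving out each replicate were not run for the same reason. With most means under 5 and the depth of each library unknown, the order of members with close means is not settled.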
